A study of Homo sapiens with 59 samples.

Results

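The replication-dependent histone genes encode the core histones H2A, H2B, H3 and H4 and the linker histone H1 that package newly made DNA. They were taken as the protein-coding genes on chromosomes 1 and 6 whose symbols name an H1 histone numbered 1 to 6 or a clustered H2A, H2B, H3 or H4 gene, and 68 of the 20007 protein-coding genes with a canonical start site met this rule. A promoter was the 3.001 kb window reaching 1500 bp to each side of the start site. The samples were ChIP libraries of NCI-H661, an established line from a large cell carcinoma of the lung, for H3K4me3, H3K27me3, H2AK119ub, H3K27ac and the Polycomb subunit SUZ12.

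Chromatin was taken from cells with an inducible miR30-type shRNA against DPPA2 (shDPPA2), DPPA4 (shDPPA4) or both (shDPPA2+4), embryonic epigenetic factors that this tumor line expresses. Each shRNA line had been made by PiggyBac transposition and sorted in bulk by its fluorescent reporter. Each line received 2 µg/ml doxycycline (DOX) for 7 days or water (H2O) as its control, with 2 replicates for each of H3K4me3, H3K27me3 and H2AK119ub. Parental cells without an shRNA were given the p300/CBP acetyltransferase inhibitor A-485 at 10 µM for 1 day, or the solvent DMSO. These had 2 replicates for H3K27ac and H2AK119ub and 3 for H3K27me3, and SUZ12 was measured in 1 DMSO library. No library of a control shRNA line was analysed here, so the action of doxycycline and that of the shRNA cannot be told apart. The labels number the replicates without saying what separates them. The study's methods call them biological replicates made in complete batches, and whether they came from separate cultures is not given in the sources used here, so p-values measure the spread between these libraries.

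Deposited peak lists of 51 libraries were used. H3K4me3 libraries held 8394879 to 19379794 reads in filtered peaks, H3K27me3 libraries of the 3 lines 1085365 to 10545826, H2AK119ub libraries of the 3 lines 1330926 to 4136521 and H3K27ac libraries 603895 to 5647079. The DOX library held more H3K4me3 peak reads than its H2O partner in 6 of 6 same-numbered pairs. Values are relative to the peak reads of each library, and the mouse spike-in was not used here, so a change shared by all promoters is not visible. H3K4me3 lay on the epithelial promoters EPCAM, KRT18 and CDH1 and on NKX2-1, DPPA2 and DPPA4 in 12 of 12 libraries. The blood markers PTPRC and CD3E, KRT8 and the lung markers SFTPB, SFTPC and NAPSA had none, while the fibroblast genes COL1A1 and COL1A2 were marked in 12 of 12.

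Histone genes of this kind are transcribed mainly in S phase. Their transcription needs the coactivator NPAT, which gathers with the clusters in a nuclear body called the histone locus body, and their transcripts end in a stem-loop bound by SLBP in place of a poly(A) tail. H2A and H2B genes often lie head to head and share the DNA between their starts, where H2B promoters carry an octamer bound by POU2F1 (Oct-1) and many histone promoters carry CCAAT boxes. H3K4me3 marks promoters that are active or poised, H3K27ac active ones, and H3K27me3 and H2AK119ub are laid down by Polycomb complexes 2 and 1.

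The 68 members comprised 6 H1, 17 H2A, 18 H2B, 13 H3 and 14 H4 genes in 6 groups separated by more than 200 kb. The largest held 32 members within 268 kb of chromosome 6 and the next 16 members within 85.5 kb of the same chromosome. A further 5 members lay within 14.3 kb on chromosome 6, and 11 lay within 75.6 kb of chromosome 1. H2AC25 and H2BC26 on chromosome 1, and H2AC1 and H2BC1 on chromosome 6, each formed a pair of their own.

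RefSeq promoter sequences (GRCh38.p14) matched 63 members, and H2AC12, H3C11, H3C12, H4C1 and H4C3 had no entry in the table used. In the 250 bases before the start, searched on both strands, the octamer ATTTGCAT was present in 25 of 63 members (39.7%), against 1.63% of the 35116 promoters in the table. All 25 were H2A or H2B genes (11 of 16 and 14 of 18). CCAAT was present in 54 members (85.7%), against 32.0% of all promoters, and was rare among H4 genes (3 of 12). TATAAA was present in 41 members (65.1%), against 10.7%. The median G+C content was 43.6% in members and 58.0% over all promoters, and the median number of CpG sites was 9 against 11. The sequences between the starts of 3 H2A/H2B pairs are shown because the results below turn on them, with the octamer, CCAAT and TATAAA in capitals on either strand. H2BC4/H2AC6 (chr6:26123927-26124171) is a pair with all 3 motifs and among the densest in H3K4me3, H2AC15/H2BC15 (chr6:27838376-27838568) had the highest mean H3K4me3 density with H2O and no octamer, and H2AC1/H2BC1 (chr6:25726563-25726776) is the pair that carried H3K27me3. Each is given 5′ to 3′ on the plus strand of GRCh38.
H2BC4/H2AC6: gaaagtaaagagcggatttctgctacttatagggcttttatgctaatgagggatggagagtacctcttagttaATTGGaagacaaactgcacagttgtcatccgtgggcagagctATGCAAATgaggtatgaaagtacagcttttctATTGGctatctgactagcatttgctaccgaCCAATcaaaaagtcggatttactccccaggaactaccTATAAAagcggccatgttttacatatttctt
H2AC15/H2BC15: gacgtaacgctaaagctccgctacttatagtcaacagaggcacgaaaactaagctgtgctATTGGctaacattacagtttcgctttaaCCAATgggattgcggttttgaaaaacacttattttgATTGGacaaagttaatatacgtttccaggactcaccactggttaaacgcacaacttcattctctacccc
H2AC1/H2BC1: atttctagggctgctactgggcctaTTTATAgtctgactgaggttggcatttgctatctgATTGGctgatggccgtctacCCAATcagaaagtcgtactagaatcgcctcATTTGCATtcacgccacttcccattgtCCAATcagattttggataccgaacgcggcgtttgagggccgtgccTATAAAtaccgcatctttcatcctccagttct

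In 11 such H2A/H2B pairs with both genes in the table, 193 to 247 bases lay between the starts. CCAAT occurred in 11 of the 11, the octamer in 8 and TATAAA in 8, and the number of CpG sites ranged 4 to 14. The H3 genes H3C14 and H3C15 are shown because their windows are copies, which decides whether reads can be placed there. Their last 120 bases before the start, at chr1:149841209-149841328 on the minus strand and chr1:149852488-149852607 on the plus strand, were identical at 116 of 116 aligned bases when offset by 4 bases.
H3C14: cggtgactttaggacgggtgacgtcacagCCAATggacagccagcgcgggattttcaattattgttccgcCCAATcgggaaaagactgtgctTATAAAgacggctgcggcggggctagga
H3C15: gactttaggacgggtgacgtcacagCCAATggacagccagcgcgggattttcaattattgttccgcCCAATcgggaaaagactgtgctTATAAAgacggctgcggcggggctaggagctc
H4C5 (chr6:26204490-26204609) and H4C6 (chr6:26240273-26240392) are 2 H4 promoters of the same large group on the plus strand. H4C5 carried H3K4me3 in 12 of 12 libraries and H4C6 in none, and a CCAAT box is present in the H4C6 sequence shown and not in that of H4C5.
H4C5: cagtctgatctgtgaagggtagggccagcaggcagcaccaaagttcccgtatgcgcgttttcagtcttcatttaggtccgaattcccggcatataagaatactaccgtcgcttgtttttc
H4C6: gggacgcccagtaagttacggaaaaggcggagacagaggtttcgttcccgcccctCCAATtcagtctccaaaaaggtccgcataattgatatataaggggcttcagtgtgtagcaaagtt

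Sequence shared between copies limits what can be read at some members. Of all 75-base stretches in a window, 100% occurred elsewhere in hg38 for H3C14, H3C15, H4C14 and H4C15, and none of these 4 had a base under a filtered peak of any mark in any library. The share was 74.8% for H2AC18, 74.7% for H2AC19, 56.3% for H3C13 and 49.9% for H2BC18, all on chromosome 1. For H4C11 and H4C12 it was 11.8%, and 29 members had no repeated stretch. Values of these copies are therefore uncertain, and an absent peak at the first 4 is not evidence of an absent mark.

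H3K4me3 covered most histone promoters in each line and treatment. A promoter was called marked where at least 300 bp lay under filtered peaks, meaning peaks with a log2 fold over input above 1 and an FDR below 0.05. By this measure 56.2 ± 0.41 of 68 members were marked with DOX and 56.7 ± 1.03 with H2O (mean ± SD, n = 6 libraries each), beside 70.0 to 71.1% of all promoters with DOX and 69.9 to 70.6% with H2O. The same 56 members were marked in all 12 libraries. They included 16 of 17 H2A, 17 of 18 H2B, 10 of 13 H3, 9 of 14 H4 and 4 of 6 H1 genes. The median marked window was covered over its whole 3001 bp in members, while the median over all marked promoters was 2492 to 2676 bp.

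**Figure D1:**
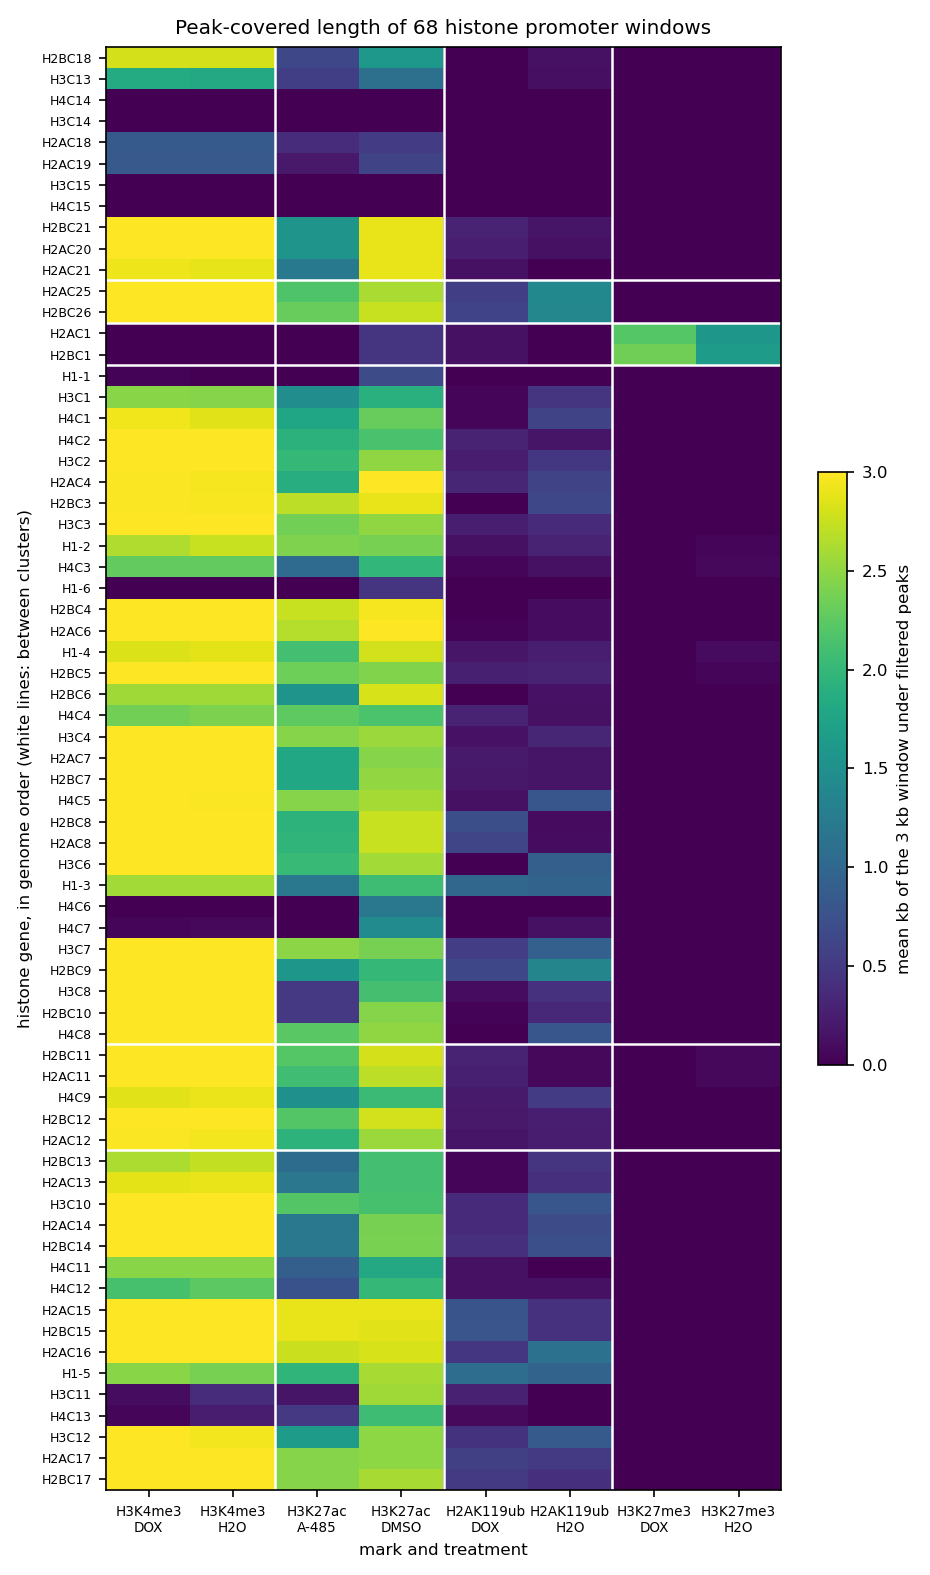
Mean length under filtered peaks, in kb of the 3.001 kb window, at each of the 68 histone promoters, which run down the page in genome order with white lines between the 6 groups. Columns give mark and treatment, with DOX left of H2O and A-485 left of DMSO. H3K4me3 and H3K27ac cover most windows, H2AK119ub covers short stretches, and H3K27me3 stands out at H2AC1 and H2BC1.

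The members without H3K4me3 fell into 3 kinds. H3C14, H3C15, H4C14 and H4C15 are the copies described above. H2AC1 and H2BC1, which encode the testis variants TH2A and TH2B, and H1-6, the testis linker histone H1t, were unmarked in 12 of 12 libraries, as was H1-1, a linker histone of restricted expression. The remainder were H4C6 and H4C7, unmarked in 12 of 12, and H3C11 and H4C13, marked in few. H3C11 was marked in shDPPA4 DOX replicate 1 and in the H2O replicate 1 libraries of shDPPA2 and shDPPA4, and H4C13 in those 2 H2O libraries alone. Each motif was found on both sides of this divide. The octamer was present in 23, CCAAT in 46 and TATAAA in 34 of the 52 matched members marked in all libraries, and in 2, 7 and 6 of the 10 marked in none. Those 10 include the copies H3C14, H3C15, H4C14 and H4C15, where an absent peak is not evidence of an absent mark. H3C14 and H3C15 have CCAAT and TATAAA, and H4C14 and H4C15 have none of the 3 motifs.

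Peak read density was the number of peak reads in the window per kb, scaled to 1000000 reads in all filtered peaks of the library. Over all members of a class, unmarked ones at 0 included, the H4 genes had the lowest median, 9.12 with DOX and 9.86 with H2O. It was 16.3 with DOX and 18.0 with H2O for H2A, 16.0 and 17.8 for H2B, 13.9 and 16.0 for H3, and 15.2 and 16.3 for H1. The values at 0 include the copies H4C14 and H4C15 among H4 genes and H3C14 and H3C15 among H3 genes, which cannot be read. The replication-dependent H1 genes are the main source of linker histone in dividing somatic cells. H1-4 had a lowest, median and highest density of 16.7, 22.2 and 24.4 with DOX, and of 19.8, 24.3 and 27.5 with H2O. H1-2 had 11.4, 17.3 and 21.3 with DOX, and 15.6, 18.7 and 22.2 with H2O. H1-5 had 15.7, 18.8 and 21.5 with DOX, and 15.8, 19.7 and 24.0 with H2O. H1-3 was the lowest of the 4, at 11.4, 13.2 and 16.2 with DOX and 11.3, 13.9 and 15.5 with H2O. The DOX and H2O ranges overlapped for each of these 4 genes.

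By mean density with H2O the highest members were in head-to-head pairs. H2AC15 and H2BC15, which share 1 region, averaged 29.3 ± 3.71 with H2O (SD, n = 6) and had a lowest, median and highest value of 21.0, 27.1 and 31.7 with DOX and of 24.2, 29.6 and 32.9 with H2O. H2AC25 and H2BC26 had 19.4, 27.1 and 29.6 with DOX, and 24.8, 27.4 and 34.4 with H2O (mean 28.3 ± 3.64, SD, n = 6). H2BC4 and H2AC6, added after their values were seen, had 22.6, 27.3 and 32.2 with DOX, and 22.8, 28.1 and 31.6 with H2O. The ranges of these 3 pairs overlapped in each treatment, and with DOX the median of H2BC4 and H2AC6 was the highest of the 3. Among marked members the lowest were the partly repeated H2AC18 and H2AC19 and the single H4 gene H4C3. H2AC19 had 2.53, 3.03 and 4.08 with DOX, and 2.64, 3.14 and 4.65 with H2O. H2AC18 had 2.92, 3.38 and 3.88 with DOX and 3.58, 4.04 and 4.62 with H2O, and H4C3 had 4.54, 5.45 and 7.74 with DOX and 4.97, 6.09 and 7.99 with H2O. DOX and H2O overlapped at each of these members.

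**Figure D2:**
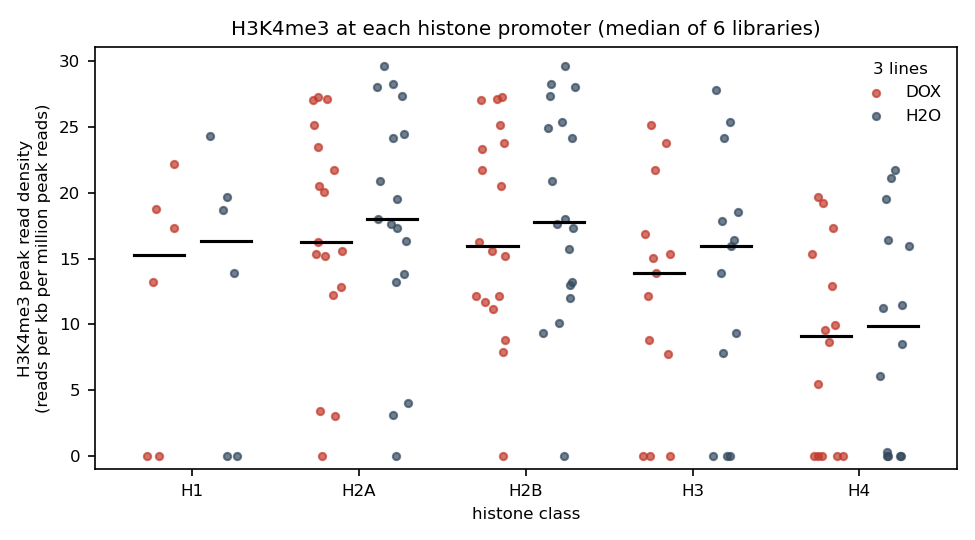
H3K4me3 peak read density (peak reads per kb of window, scaled to the peak reads of the library) of each member, by histone class, with DOX left of H2O. Each point is 1 member's median over the 6 libraries of the 3 lines, and bars are class medians, which with DOX lie between 9.12 for H4 and 16.3 for H2A.

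The question of whether knockdown alters H3K4me3 at histone genes was asked over merged peak regions present in all 12 libraries, with edgeR's quasi-likelihood test and the replicate number as a block. No member region was called at an adjusted p below 0.05 with a log2 difference of 0.5 or more in either direction. The 56 marked members lay in 28 of the 22060 tested regions, and 0 of 28 were called in each contrast. Over all regions the called share was 0.0272% in shDPPA2, 0.0363% in shDPPA4, 0.0% in shDPPA2+4 and 0.521% for the mean over the 3 lines (42 higher, 73 lower). For the mean over lines DESeq2 called 0 of 28 by the same rule.

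The differences were small and in 1 direction. For the mean over lines the log2 fold change of DOX against H2O ranged −0.28 to −0.04 over the 28 regions (SE 0.025 to 0.099), with a median of −0.14, beside a median of 0.00 over all regions, and it was below 0 in 28 of 28. By the adjusted p alone, 12 of 28 fell, beside 5.53% of all regions. That count depended on the fit and on single libraries: it was 6 with DESeq2 and 0 without the block for the replicate number. It was 0 on replicate 1 alone, 13 on replicate 2 alone, and 2 to 19 when 1 library was left out. It was 2 without any of shDPPA2 H2O replicate 1, shDPPA4 H2O replicate 2, shDPPA4 DOX replicate 1 or shDPPA2+4 H2O replicate 2, 7 without shDPPA2 DOX replicate 1 or shDPPA2+4 H2O replicate 1, and 19 without shDPPA2+4 DOX replicate 1. The median stayed between −0.15 and −0.11 in each of these fits.

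The region with the smallest adjusted p held H2BC11, H2AC11, H4C9, H2BC12 and H2AC12, the whole group of 5 genes, in 22.8 kb at chr6:27126101-27148900. Its lowest, median and highest value was 263, 325 and 367 CPM (reads per 1000000 in the tested regions, TMM-scaled) with DOX, against 308, 370 and 405 with H2O, which gave −0.18 on the log2 scale (SE 0.033, adjusted p = 0.00669). H2AC25 and H2BC26 at chr1:228454101-228465900 had 219, 231 and 236 with DOX, against 241, 243 and 263 with H2O (log2 fold change −0.11, SE 0.025, adjusted p = 0.0174). There the DOX and H2O libraries did not overlap, which held for 1 of the 28 member regions, while those of the 5-gene region overlapped. How many of all tested regions were without overlap was not counted. H2AC15 and H2BC15 had 123, 149 and 163 with DOX, against 141, 166 and 185 with H2O (log2 fold change −0.16, SE 0.037, adjusted p = 0.0163), and the libraries overlapped. Each of these is a fall under the threshold of 0.5 set for a call.

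Linker histone genes lay in 4 of the tested regions, and no difference between these regions was tested. The region of H1-4 and H2BC5 had 130, 159 and 177 CPM with DOX, against 141, 174 and 189 with H2O (log2 fold change −0.13, SE 0.030, adjusted p = 0.0168). H1-2 had 70.0, 86.4 and 96.8 with DOX, against 76.1, 94.8 and 108 with H2O (log2 fold change −0.16, SE 0.043, adjusted p = 0.0353). For H2AC16 and H1-5 the difference of DOX from H2O was −0.10 (SE 0.032, adjusted p = 0.0712) on the log2 scale and for H1-3 it was −0.06 (SE 0.038, adjusted p = 0.351). DOX and H2O overlapped in each of the 4 regions. Of the members with the lowest density, the region of H2AC18 and H2AC19 differed by −0.15 on the log2 scale (SE 0.031, adjusted p = 0.0122) and H4C3 by −0.13 (SE 0.073, adjusted p = 0.283).

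**Figure D3:**
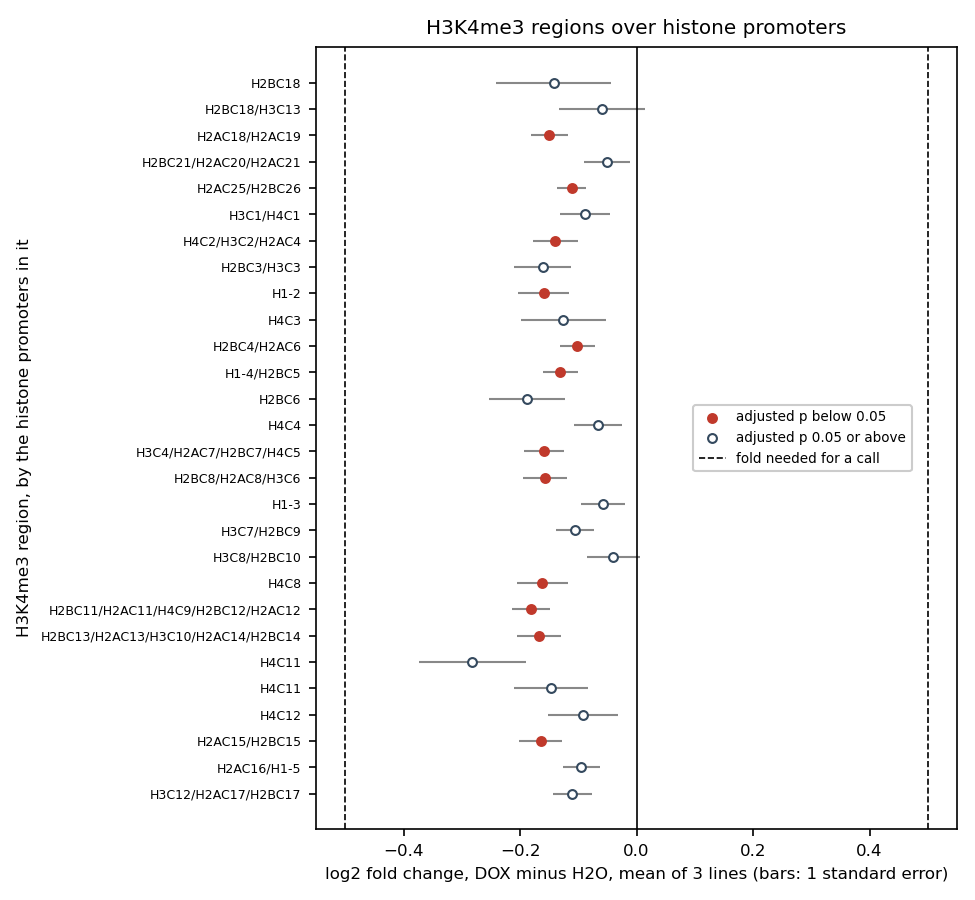
Log2 fold change of DOX against H2O with its SE for each of the 28 H3K4me3 regions that hold histone promoters, as the mean over the 3 lines from edgeR. Bars span 1 SE to each side. The regions lie between −0.28 and −0.04, all above the call limit of −0.5, and 12 have an adjusted p below 0.05.

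The scale decides how this reads. On the scale of each library's peak reads, the density of the 56 members had a median log2 difference of −0.13, below 0 at 56 of 56, beside −0.01 over all promoters marked in 12 libraries. The median over members was below 0 in 6 of 6 same-numbered pairs (−0.22 to −0.08). Per the relative library total recovered from the fold column of the peak lists, the median was 0.0095 over members and 0.13 over all promoters, and 26 of 56 members were below 0. That total was estimated from input counts at 917 to 1271 peaks whose borders matched those of shDPPA2 H2O replicate 1. Relative to the median of all promoters the members were thus lower on both scales, whereas the sign of their own difference was not kept. Histone regions were also longer, with a median of 6.25 kb (1.1 to 22.8 kb), against 3.3 kb over all tested regions, and DOX libraries held more peak reads. The part of region length and of peak reads in these differences was not tested.

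H3K27me3 was found at 1 histone locus. With DOX 2.00 ± 0.00 and with H2O 2.50 ± 0.55 of 68 members were marked (mean ± SD, n = 6 each), beside 14.2 to 17.3% of all promoters with DOX and 11.1 to 17.9% with H2O. H2AC1 and H2BC1 were the members marked in 6 of 6 DOX libraries and in 5 of 6 H2O libraries. In the H2BC1 window 2801 and 2577 bp were covered in shDPPA2 DOX, 2277 and 2777 bp in shDPPA4 DOX and 2601 and 1077 bp in shDPPA2+4 DOX (replicates 1 and 3). With H2O the coverage was 2301 and 1601 bp in shDPPA2, 2801 and 0 bp in shDPPA4 and 2701 and 577 bp in shDPPA2+4. The library with no peak, shDPPA4 H2O replicate 3, had the fewest H3K27me3 peak reads of the 12 (1085365).

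The merged region at this pair spanned 24.1 kb (chr6:25714001-25738100). It had 73.8, 101 and 127 CPM with DOX (lowest, median, highest), against 72.5, 122 and 141 with H2O, and the libraries overlapped. The mean log2 fold change was −0.21 (SE 0.147, adjusted p = 0.374), and it was −0.24 in shDPPA2, −0.05 in shDPPA4 and −0.34 in shDPPA2+4. Over all 14942 regions 0.0% were called. With A-485 the H2AC1 window had 2362, 1362 and 662 bp covered, against 2562, 2562 and 0 bp with DMSO (replicates 2, 3 and 4). The DMSO library without coverage held 498618 peak reads, the fewest of the 6. The log2 fold change of the parental region was −0.10 (adjusted p = 0.935), with 0.0% of 8822 regions called.

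Elsewhere H3K27me3 appeared in single H2O libraries. It covered 400 bp at H4C3 in shDPPA2 replicate 1, 300 bp at H1-2 in shDPPA4 replicate 1, 500 bp at H1-4 and 400 bp at H2BC11 and H2AC11 in shDPPA4 replicate 3. No DOX library showed it at these members. SUZ12, a subunit of Polycomb complex 2, marked 0 of 68 members in its 1 library, beside 12.2% of all promoters, and no SUZ12 peak was called at H2AC1 or H2BC1.

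Bivalent chromatin, with H3K4me3 and H3K27me3 in both H2O libraries of a line, was found at 0 members in each line, beside 8.61, 7.37 and 8.25% of all promoters in shDPPA2, shDPPA4 and shDPPA2+4. H3K4me3 without H3K27me3 in any H2O library (H3K4me3-only) was found at 55, 52 and 56 members, beside 58.4 to 58.7% of all promoters. H2AC1 and H2BC1 were H3K27me3-only in shDPPA2 and shDPPA2+4. In shDPPA4 they were marked in replicate 1 alone.

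H2AK119ub at histone promoters differed widely between replicates. With DOX 21, 28 and 33 members were marked in the replicate 1 libraries of shDPPA2, shDPPA4 and shDPPA2+4, and 2, 2 and 0 in replicate 3. With H2O the counts were 27, 33 and 29 in replicate 1, and 12, 15 and 15 in replicate 3. The mean was 14.3 ± 14.8 with DOX and 21.8 ± 8.86 with H2O (SD, n = 6 each), and on replicate 1 alone 27.3 with DOX and 29.7 with H2O. The 3 DOX replicate 3 libraries thus stood below the other 9, and over all promoters too they had the lowest shares, 28.6, 35.0 and 41.7%, beside 46.2 to 57.8% in the other 9. Those 3 libraries held 3653434 to 4136521 peak reads, more than the other 9.

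Set against promoters of like H3K4me3, the members had less H2AK119ub in 12 of 12 libraries. Among H3K4me3-only promoters of shDPPA2, 34.5 and 0.0% of members carried H2AK119ub with DOX (replicates 1 and 3), beside 66.8 and 22.5% of all, and 47.3 and 21.8% with H2O, beside 66.4 and 60.3%. In shDPPA4 it was 48.1 and 3.85% of members with DOX, beside 58.9 and 32.0%, and 61.5 and 25.0% with H2O, beside 71.5 and 56.4%. In shDPPA2+4 it was 58.9 and 0.0% with DOX, beside 68.4 and 41.0%, and 51.8 and 26.8% with H2O, beside 71.2 and 55.0%. In both H2O libraries of a line it was present at 7, 10 and 9 of the 55, 52 and 56 members, beside 53.5, 53.1 and 51.9% of all H3K4me3-only promoters. The covered stretches were short as well, with medians of 700 to 1500 bp in members with H2O, against 1300 to 2000 bp over all marked H3K4me3-only promoters.

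**Figure D4:**
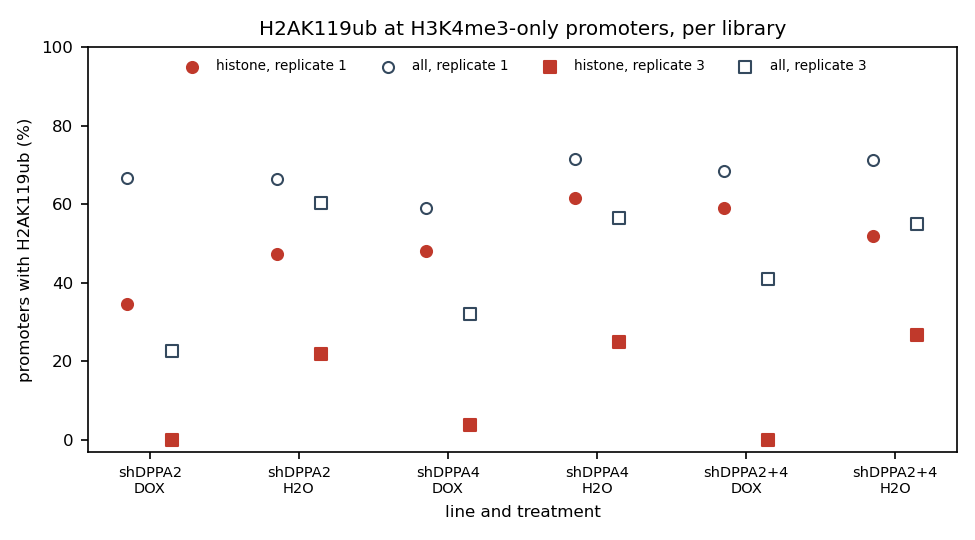
Share of H3K4me3-only promoters that carried H2AK119ub in each of the 12 libraries, for histone members and for all promoters, with DOX left of H2O within each line. The members lie below all promoters in 12 of 12 libraries, and the DOX replicate 3 libraries are the lowest, at 0.0 to 3.85% of members.

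Along the promoter, the 51 members that were H3K4me3-only in each of the 3 lines had little H2AK119ub at the start. With DOX it covered 5.56% of member and library combinations 150 bp before the start and 13.7% at 450 bp after it, beside 14.5 and 35.9% over 11377 promoters of the same class. With H2O it covered 5.56% before and 24.5% after the start in members, beside 23.5 and 49.5% over all. H3K4me3 extended further out, covering 81.7% at 1450 bp before the start in members with DOX and 82.4% with H2O, beside 41.3 and 38.0% over all. Many members share a region with neighbouring members, and the part of this spacing in the breadth was not tested. H3K27ac with DMSO covered 70.6% of members at 1450 bp before the start and 66.7% at 150 bp before it, beside 26.1 and 84.2% over all.

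**Figure D5:**
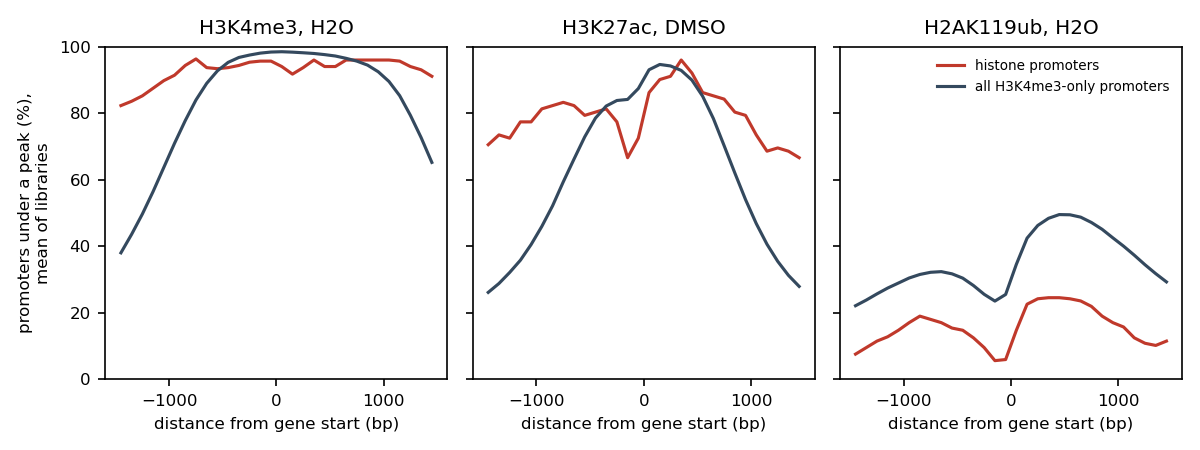
Percent of promoter and library combinations under a filtered peak, by distance from the start site (bp, negative before the start), for histone members and for all promoters that were H3K4me3-only in each of the 3 lines. The panels show H3K4me3 with H2O, H3K27ac with DMSO and H2AK119ub with H2O, each averaged over its libraries. At 1450 bp before the start the members have 82.4% for H3K4me3, against 38.0% over all, and H2AK119ub of members is at 5.56% just before the start.

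A promoter was counted as having lost a mark where it was marked in both H2O libraries and in neither DOX library of a line. In shDPPA2, 4 of 7 members lost H2AK119ub, beside 6.34% of all promoters that could. These were H2BC3 (0 and 0 bp with DOX, against 1288 and 500 bp with H2O), H3C6 (0 and 0 bp, against 1000 and 700 bp), H3C8 (0 and 0 bp, against 500 and 500 bp) and H4C9 (0 and 0 bp, against 1400 and 400 bp). In shDPPA4, 2 of 10 lost it, beside 11.0%. These were H2BC9 (0 and 0 bp with DOX, against 1987 and 500 bp with H2O) and H4C8 (0 and 0 bp, against 2267 and 600 bp). In shDPPA2+4, 0 of 9 lost it, beside 5.08%.

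Gains were seen in shDPPA4 alone, where 2 of 30 members were marked in both DOX libraries and in no H2O library, beside 0.887% of all promoters. They are the head-to-head pair H2BC8 (913 and 500 bp with DOX, against 0 and 0 bp with H2O) and H2AC8 (800 and 500 bp, against 0 and 0 bp), which share their DNA and so are 1 event. No member lost or gained H2AK119ub in more than 1 line. The counts rest on single libraries: on replicate 1 alone, 15 of 27 members lost it in shDPPA2, 17 of 33 in shDPPA4 and 8 of 29 in shDPPA2+4, and 9, 12 and 12 gained it. On replicate 3 alone 12 of 12, 15 of 15 and 15 of 15 were lost, and 2, 2 and 0 were gained. No share over all promoters is given beside these single-replicate counts, so they are not a result about the members. In replicate 3, 28.6, 35.0 and 41.7% of all promoters were marked with DOX, against 50.0, 46.9 and 46.9% with H2O. H3K4me3 was lost at 0 of 56 members in each line, beside 0.0358, 0.0216 and 0.0431% of all promoters that could lose it. H3K27me3 was lost at 0 of 2 members in shDPPA2 and 0 of 2 in shDPPA2+4, beside 3.66 and 1.92%. In shDPPA4 no member could lose H3K27me3. These counts of 0 are therefore not a result about the members.

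Among the members with H2AK119ub in most libraries was the linker histone gene H1-5, with 3001, 2100 and 1300 bp in the DOX replicate 1 libraries of shDPPA2, shDPPA4 and shDPPA2+4 and 0 bp in each DOX replicate 3 library. With H2O it had 1413 and 813 bp in shDPPA2, 1413 and 600 bp in shDPPA4 and 1513 and 0 bp in shDPPA2+4 (replicates 1 and 3). H1-3 had 2987, 1414 and 1514 bp in the DOX replicate 1 libraries and 0 bp in DOX replicate 3. With H2O it had 1487 and 0 bp in shDPPA2, 401 and 0 bp in shDPPA4 and 2814 and 1000 bp in shDPPA2+4. H1-2 and H1-4 were marked in 3 libraries each, and H1-1 and H1-6 in none. The testis pair H2AC1 and H2BC1 had H2AK119ub in 1 of 12 libraries, shDPPA2 DOX replicate 3, over 800 bp at H2AC1.

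No histone promoter lay in an H2AK119ub region present in all 12 libraries, so the test across regions held no member. With promoter windows in which unmarked libraries count as 0, 29 members were among 11207 tested and 0 were called by edgeR, beside 0.0446% of all windows.

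In parental cells H3K27ac covered most histone promoters with and without the acetyltransferase inhibitor. With A-485 56 and 50 members were marked (replicates 2 and 4), against 59 and 63 with DMSO. Over all promoters the shares were 49.4 and 38.8% with A-485, against 58.9 and 73.6% with DMSO. Of 58 members marked in both DMSO libraries, 1 lost the mark in both A-485 libraries, beside 12.4% of all promoters. It was H4C7, with 0 and 0 bp with A-485, against 896 and 2000 bp with DMSO. On replicate 2 alone 3 of 59 lost it, and on replicate 4 alone 13 of 63, counts that have no share over all promoters beside them. Of the 4 members marked in neither DMSO library 0 gained it, beside 0 of 5149 over all promoters.

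The H1 genes H1-2 to H1-5 kept H3K27ac in each library. H1-2 had 2331 and 2500 bp covered with A-485, against 2631 and 2131 bp with DMSO, and H1-4 had 2329 and 1872 bp, against 3001 and 2600 bp. H1-5 had 1913 and 2013 bp with A-485, against 2701 and 2513 bp with DMSO, and H1-3 had 1500 and 900 bp, against 2514 and 1614 bp. The A-485 and DMSO libraries did not overlap at H1-3, H1-4 and H1-5 and overlapped at H1-2. Lower coverage in each A-485 library than in each DMSO library was found at 21 of 58 members (36.2%), beside 83.4% of all promoters marked in both DMSO libraries. H1-1, H1-6 and H2AC1 were covered in DMSO replicate 4 alone, over 1400, 935 and 900 bp.

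Of the members with little or no H3K4me3 in the lines, H4C7, described above, and H3C11 and H4C13 carried H3K27ac in both parental DMSO libraries. H3C11 had 0 and 346 bp with A-485, against 2600 and 2546 bp with DMSO. H4C13 had 0 and 1000 bp with A-485, against 1767 and 2367 bp with DMSO. H4C6 was covered in DMSO replicate 4 alone, over 2393 bp. The A-485 and DMSO libraries did not overlap at H3C11 or H4C13. H3K4me3 was not measured in parental cells.

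Relative to the peak reads of its own library, H3K27ac at histone promoters was denser with A-485 than with DMSO in both replicates. The median density of marked members was 50.8 and 23.9 with A-485, against 33.1 and 9.04 with DMSO, beside 16.2 and 16.0, against 14.6 and 6.02, over all marked promoters. H2AC15 had 86.5 and 49.7 with A-485, against 45.0 and 15.6 with DMSO, and H2AC25 had 39.7 and 28.1, against 27.7 and 11.5. H1-2 had 56.8 and 41.4 with A-485, against 39.5 and 11.2 with DMSO. These are shares of each library's own peak reads, and DMSO replicate 4 held 112108 filtered peaks, against 25946 to 33889 in the other 3 libraries.

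The edgeR test over 8967 H3K27ac regions, of which 21 held 51 members, called 0 of 21 (0 at an unadjusted p below 0.05, DESeq2 0), beside 0.0% of all regions (662 at an unadjusted p below 0.05). Only regions with a peak in all 4 libraries were tested, 8967 of 128296 regions and 21 of 34 member regions. A region without a peak with A-485 was left out, so the test cannot show a loss of that kind. The log2 fold change of A-485 against DMSO ranged −0.29 to 0.53 (SE 0.33 to 0.50), with a median of 0.24 and 16 of 21 above 0, beside a median of −0.01 over all regions. The median was −0.23 without A-485 replicate 2, −0.22 without DMSO replicate 4, 0.59 without A-485 replicate 4 and 0.84 without DMSO replicate 2. On the scale of each library's peak reads, the median log2 difference of density was 0.97 at members and 0.51 over all promoters marked in all 4 libraries. Per the relative library total it was −0.94 at members and −1.27 over all, so the sign at members depended on the scale, while their median stood above that of all promoters on each. The relative totals are rough estimates from 132 to 245 peaks whose borders matched those of A-485 replicate 2. Input counts equalled those of A-485 replicate 2 at 132 of 132 such peaks in DMSO replicate 4. In A-485 replicate 4 they did so at 39 of 245.

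H2AK119ub was sparse at members in parental cells. With A-485 2 and 3 members were marked (replicates 3 and 4), against 2 and 9 with DMSO, beside 32.6 and 22.5% of all promoters with A-485 and 38.2 and 19.3% with DMSO. Of 2 members marked in both DMSO libraries 1 lost the mark, beside 8.15%. It was H2AC25, with 0 and 273 bp with A-485, against 900 and 900 bp with DMSO, while its partner H2BC26 kept 500 bp in A-485 replicate 4. Earlier work on these data had placed DMSO replicate 3 close to another target, so the loss was also counted without it. By shared promoters, however, it was closest to its own target. Of promoters marked in it or in A-485 H2AK119ub replicate 3, 65.9% were marked in both. For DMSO H3K27ac replicate 4 that share was 40.1%. Against DMSO replicate 4 alone, 8 of 9 members were unmarked in both A-485 libraries, beside 16.9% of all promoters. They were H1-5, H2AC14, H2AC25, H2BC9, H2BC10, H2BC14, H3C7 and H3C12, and that count rests on 1 DMSO library with 390762 peak reads. The tested H2AK119ub regions of this experiment held no member.

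The factors that transcribe histone genes and process their transcripts carried H3K4me3 throughout. All 21 promoters of the list, among them NPAT, HINFP, SLBP, LSM10 and LSM11 (subunits of the U7 particle), POU2F1 and the NFY subunits that bind CCAAT, were marked in 12 of 12 libraries, and none carried H3K27me3 or SUZ12. H2AK119ub marked 3 to 16 of the 21 with DOX and 12 to 18 with H2O, and H3K27ac 17 to 18 with A-485 and 21 with DMSO. Over all promoters H2AK119ub marked 28.6 to 55.6% with DOX and 46.9 to 57.8% with H2O. H3K27ac marked 38.8 to 49.4% of all promoters with A-485 and 58.9 to 73.6% with DMSO. Of 13 replication-independent and variant histone genes, 12 carried H3K4me3 in 12 of 12 libraries, with H3-5 the exception, and none carried H3K27me3 in these libraries. H2AK119ub marked 2 to 10 of the 13 with DOX and 8 to 11 with H2O. H3K27ac marked 10 to 12 of the 13 with A-485 and 12 with DMSO. Of 20 other genes between the first and last member of chromosome 6, 14 to 15 carried H3K4me3 with DOX and 14 with H2O, and SLC17A1 to SLC17A4 and TRIM38 had none. Over all promoters H3K4me3 marked 70.0 to 71.1% with DOX and 69.9 to 70.6% with H2O. H3K27me3 marked 14.2 to 17.3 and 11.1 to 17.9% of all promoters, and SUZ12 12.2%.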

How the data were processed

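ChIP libraries of NCI-H661 cells were single-end reads that the authors trimmed, aligned with bwa-mem, marked for duplicates with Picard, split from mouse spike-in reads with XenofilteR, and passed to EPIC2 with an input library. The submitters' processing notes name Trim Galore 0.6.6, BWA 0.7.13, SAMtools 1.9, Picard 2.6.0 and deepTools 3.5.0. The deposited peak lists give, per peak on hg38 in 100 bp steps, ChIP and input read counts. They also give the authors' log2 fold over input, and the p-value, FDR (q-value) and score that EPIC2 deposited for each peak. Of 59 samples, 51 had a list and 8 were inputs.

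Peaks with log2 fold above 1 and FDR below 0.05 were kept. Start sites were those of GENCODE canonical transcripts. Peak reads were shared out by length within windows. Regions present in every library of a fit with a mean of at least 10 reads were tested on summed counts with edgeR 4.0.16 in R 4.3.3 (quasi-likelihood, TMM, Benjamini-Hochberg over all regions), with the line, the treatment within the line and the replicate number as block, and called at adjusted p below 0.05 and absolute log2 fold change of at least 0.5. DESeq2 1.42.0 was an alternative. Counts were computed with Python 3.11.15, pandas 2.3.3 and numpy 2.4.6. The edgeR script was tested on simulated data. The study's model includes the batch. Deviations of same-numbered libraries correlated at 0.36 to 0.54 for H3K4me3, 0.24 to 0.71 for H2AK119ub, −0.09 to 0.69 for H3K27me3 in the lines, 0.37 to 0.54 for H3K27me3 in parental cells and 0.41 for H3K27ac. Regions with few reads are measured with less precision.

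One marker gene of the lists is not reported here. Members and lists were chosen with earlier results of these data known, so no p is given over the members. Values per library are given for H1 genes, testis histones, members that lost or gained a mark or had H3K27me3 in at least 3 of 6 H2O libraries, and the 3 highest and 3 lowest in H3K4me3 density. Alternatives were other thresholds, windows of 500 bp, other scalings, no block and leaving out libraries.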

Additional observations from a re-analysis of the deposited data

Results flagged for a closer look

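Of 30 groups of 6 libraries examined, 2 held a library whose gap to its nearest neighbour was large for the range of the group, and chance gives about 1 in 20. With DOX, 57 histone promoters carried H3K4me3 in shDPPA4 replicate 1 and 56 in each of the other 5 libraries, the added one being H3C11. The H3K4me3 density of H2AC19 was 4.65 in shDPPA2 H2O replicate 1, the highest of the 6 H2O libraries, and 74.7% of the 75-base stretches in its window occur elsewhere in hg38.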

How the results depend on the processing

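Over 55 results and 587 alternatives, 515 were scored as the same. A count was the same within a set ratio, a mean or median within the SD of the main result, and a single region if it kept its sign and call. A wide SD makes this lenient: H2AK119ub with DOX had an SD of 14.8, so 1.33 to 27.3 counted as the same. No member region was called in any fit, so a change of sign with a call could not occur. H3K4me3 regions lower by adjusted p alone numbered 12, against 6 with DESeq2, 1 in promoter windows marked in every library, 0 in windows with unmarked libraries as 0 (chosen after seeing the data), 0 without the replicate block and 0 to 19 with libraries left out. Without the replicate block the median log2 fold change of paired H3K4me3 libraries stayed at −0.14, and it changed no other call. The H3K27ac median was 0.24 and ranged −0.23 to 0.84 with libraries left out, so its sign was not kept. Per relative library total the density difference was 0.0095 for H3K4me3 and −0.94 for H3K27ac. On the scale of peak reads it was −0.13 and 0.97, so both signs changed.

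Marked members per H3K4me3 library with DOX were 56.8 at 1 bp, 54.0 at 1500 bp and 54.2 in 500 bp windows, and with H2O 54.2 at 1500 bp and 54.2 in 500 bp windows. For H3K27me3 they were 1.67 at 1500 bp and 2.17 with all peaks for DOX, and 1.33 at 1500 bp, 1.33 at fold above 2 and 1.67 in 500 bp windows for H2O. For H2AK119ub with DOX they were 3.67 at 1500 bp, 20.0 with all peaks, 3.67 at fold above 2 and 9.17 in 500 bp windows, and with H2O 5.83 at 1500 bp, 34.3 with all peaks, 4.83 at fold above 2 and 13.7 in 500 bp windows. For H3K27ac they were 37.5 at 1500 bp, 45.5 at fold above 2 and 44.5 in 500 bp windows with A-485, and 52.5, 56.5 and 56.5 with DMSO. Leaving out libraries gave 1.33 to 27.3 for H2AK119ub with DOX and 14.0 to 29.7 with H2O.

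H2AK119ub losses were 0 at 1500 bp and 1 at fold above 2 in shDPPA2. In shDPPA4 they were 5 with all peaks, 0 at fold above 2 and 1 in 500 bp windows, and its gains were 0 under each of these and at 1500 bp. In shDPPA2+4 losses were 1 with all peaks and 1 in 500 bp windows. H2AK119ub losses with A-485 were 0 at 1 bp, 1500 bp, fold above 2 and in 500 bp windows. H3K27ac losses were 5 at 1500 bp, 2 at fold above 2 and 2 in 500 bp windows. On 1 replicate alone losses were 12 to 15 in shDPPA2, 15 to 17 in shDPPA4, 8 to 15 in shDPPA2+4, 3 to 13 for H3K27ac, 2 to 8 for H2AK119ub with A-485, 0 to 2 for H3K4me3 in shDPPA2 and 0 to 1 in shDPPA4. Gains were then 2 to 9, 2 to 12 and 0 to 12 in the 3 lines and 0 to 2 with A-485. No share over all promoters is given for these counts on 1 replicate. The cause was not tested. Members of H2AK119ub regions could not be fitted, since none lay in a region common to all libraries.

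Peak lists keep no reads outside peaks, so weak signal at a histone promoter is not seen. Near-identical copies hide 4 members. With 2 replicates a line, small differences are not detectable.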

Other observations

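The genes beside the testis pair H2AC1 and H2BC1 carried the same mark. The promoters of SLC17A1, SLC17A2, SLC17A3 and SLC17A4, a group of solute carrier genes that lies next to this pair on chromosome 6, had H3K27me3 in 6 of 6 DOX libraries, and none of the 4 had it in every H2O library. The H3K27me3 libraries held 5989134 to 10431794 peak reads with DOX and 1085365 to 10545826 with H2O. The part of depth in these counts was not tested. In parental cells SLC17A2 and SLC17A4 had it in 3 of 3 A-485 libraries, and none of the 4 in every DMSO library. None of the 4 carried H3K4me3 in any of the 12 libraries. Of the 20 genes between the histone members of chromosome 6, 4 to 5 carried H3K27me3 with DOX and 1 to 6 with H2O. The shares over all promoters were 14.2 to 17.3% and 11.1 to 17.9%. H3K27ac was found at 6 to 11 of the 20 with A-485 and at 13 in each DMSO library, and SUZ12 at 0. Over all promoters these shares were 38.8 to 49.4%, 58.9 to 73.6% and 12.2%.

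In the parental DMSO H2AK119ub replicate 3 library, 7641 promoters were marked. Of these 83.9% were also marked in DMSO H3K27ac replicate 4, the largest share among the other parental libraries. It was 73.6% in A-485 H2AK119ub replicate 3, 42.2% in DMSO H2AK119ub replicate 4 and 28.5% in DMSO H3K27me3 replicate 3. Of all promoters these libraries marked 73.6, 32.6, 19.3 and 15.7%, in the order given, so the largest share was in the library with most promoters marked. In terms of the other library's promoters the shares were 43.5, 86.3, 83.7 and 69.3%, in the same order. Of promoters marked in either library, 40.1, 65.9, 39.0 and 25.3% were marked in both. By this last measure A-485 H2AK119ub replicate 3 was the closest of the parental libraries.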
